A study of Homo sapiens with 9 samples.

Results

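The histone genes of MHCC97H, a line of human liver cancer (hepatocellular carcinoma, HCC) cells, were examined in poly-A RNA after depletion of RPL6, a protein of the large ribosomal subunit. Members were protein-coding genes picked by a symbol rule for linker histones (H1) and core histones (H2A, H2B, H3 or H4), 81 of the 60683 genes in the table. The rule leaves out some histone symbols, among them H2AW (95 to 124 counts in shCont) and H2BS1 (77 to 98 counts), which were not examined. They were split into 70 replication-dependent genes, of which 55 lie on chromosome 6, 14 on chromosome 1 and 1 on chromosome 12, and 11 replacement histone genes scattered over other loci. The study sequenced poly-A RNA from cells carrying a control hairpin (shCont) or either of 2 lentiviral hairpins against RPL6 (shRPL6-1 and shRPL6-2), with 3 libraries in each of the 3 groups and 9 in all. The study made the comparison to look for transcripts behind an effect of RPL6 on metastasis. All groups were the same cell line with no further treatment given in the labels, and whether a group was grown as 1 culture or several is not stated. The p-values below therefore rest on library-to-library variation alone, possibly technical.

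Replication-dependent histone mRNAs are made mainly in S phase, when new DNA has to be packed, and are the messenger RNAs of animal cells that normally carry no poly-A tail. Their 3′ end is a short stem-loop, bound by SLBP and cut just downstream with the help of the U7 small nuclear ribonucleoprotein, and the same stem-loop directs their rapid decay when DNA synthesis stops. Some of these genes also give a polyadenylated transcript that runs past the stem-loop to an ordinary poly-A signal. Replacement histones, such as H3.3 and H2A.Z, are encoded by ordinary polyadenylated genes and are deposited throughout the cell cycle. A library made by poly-A selection therefore sees most replacement transcripts and, of the replication-dependent genes, whatever tailed transcripts they make.

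The libraries held 13638468 to 16149480 gene counts. RPL6 was left at 2.83% of its shCont level with shRPL6-1 and 3.03% with shRPL6-2, and every hairpin library lay below every shCont library. In shCont replicate 3, levels tended to be higher for genes of high GC content (Spearman correlation across genes between GC content and the log level relative to the average library, 0.25), whereas shCont replicates 1 and 2 went the other way (−0.54 and −0.53), so that replicate 3 stood apart from its group. The correlation ran from −0.11 to 0.27 with shRPL6-1 and from 0.11 to 0.59 with shRPL6-2. Of 12 liver markers, ALB had no count in any library and 8 had too few counts to be tested, whereas the epithelial keratin KRT8 stood at 1358 CPM in shCont. The summed level of 5 leukocyte markers was 1.36 to 3.91 CPM in all libraries. Among the markers of other cells, COL1A1 stood at 79.6 CPM and CDH5 at 37.2 CPM in shCont. Summed levels of 5 fibroblast markers ran from 71.7 to 94.0 CPM in shCont, 58.5 to 62.2 CPM with shRPL6-1 and 60.4 to 66.4 CPM with shRPL6-2. Those of 3 endothelial markers ran from 30.0 to 49.8, 27.2 to 30.6 and 18.7 to 22.3 CPM. The part of these markers in the results was not tested.

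The histone stem-loop consensus, 16 bases made of a stem with 6 bases in each arm and a loop of 4 bases, was searched in the GENCODE release 29 transcripts (GRCh38). It was found in the transcripts of 31 of the 68 replication-dependent genes present in that release, of 1 replacement gene (H2AX), and of 67 of all 58676 genes (0.114%). The other 37 replication-dependent genes had no match in their annotated transcripts, which says nothing about the genomic sequence beyond the annotated end. All 8 genes of the H4 family with a match had the stem GGCCC paired with GGGCC, and the only other gene with it was H2AX. The examples below are shown because the results turn on these genes. Capitals mark the stem-loop and 5 transcript bases stand on each side.
H2BC5 (chr6:26158587-26158602, + strand): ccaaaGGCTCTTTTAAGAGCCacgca
H2AC18 (chr1:149842223-149842238, − strand): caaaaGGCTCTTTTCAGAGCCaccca
H2BC9 (chr6:26252055-26252070, + strand): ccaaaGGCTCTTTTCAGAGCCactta
H2AC11 (chr6:27133515-27133530, + strand): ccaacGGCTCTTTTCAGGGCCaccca
H4C15 (chr1:149860769-149860784, − strand): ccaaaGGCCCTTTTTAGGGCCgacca
H2AX (chr11:119094898-119094913, − strand): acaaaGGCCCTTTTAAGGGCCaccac
In the stem of H2AC11, 5 of the 6 positions pair by the usual rules, and in the others all 6 do. The annotated transcripts that hold the stem-loop ended 39 bases after it in H2BC5 and 35 bases after it in H2AC18. They ran on for 1640 bases in H2BC9, 1761 in H2AC11, 240 to 1314 in H4C15 and 821 to 1044 in H2AX. The annotated span of H2BC5 nonetheless reaches chr6:26171349, and transcripts without a match were not measured. Of the 31 replication-dependent genes with a match, 22 had a transcript that holds it and extends at least 100 bases past it. In 15 of these 22 genes the last 40 bases held the poly-A signal AATAAA or its variant ATTAAA. Of all 83129 protein-coding transcripts 42.9% held it, a share counted per transcript and not per gene, so the values are not like for like.

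Enough reads for a test were found for 41 of the 70 replication-dependent genes and 9 of the 11 replacement genes. The 29 replication-dependent genes left out had at most 16 counts in any library, and 4 of them (H2AC1, H2AC15, H3C11 and H4C13) had none anywhere, which allows up to 3 counts in each library. The replacement genes left out, H1-7 and H1-8, which serve germ cells, had none either. By family, 3 of 6 H1 genes, 10 of 16 H2A, 12 of 18 H2B, 7 of 15 H3 and 9 of 15 H4 genes of the replication-dependent class were tested. A few genes held most of the reads of the class: H2BC12 had 23.3% of its counts over all libraries and H1-2 20.8%, and the first 5 genes together had 65.5%.

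Per transcript length, the order of the 5 most abundant replication-dependent genes in shCont was H2BC12 (476 ± 84.4 FPKM, fragments per kilobase of transcript, scaled to library size; mean ± SD, n = 3), H1-2 (197 ± 5.24 FPKM), H2AC18 (104 ± 9.26 FPKM), H2AC19 (86.6 ± 5.14 FPKM) and H4C9 (16 ± 3.08 FPKM). H2AC18 and H2AC19 are near-identical copies at 1q21, so the split of reads between them is uncertain. The replacement gene H1-10, a linker histone, fell in the same range (172 ± 36.5 FPKM). Its level and that of H1-2 did not differ beyond their spread in shCont. The median over the tested genes was 4.49 FPKM for the replication-dependent class and 24.7 FPKM for the replacement class.

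Detection went with the annotated span of a gene, from its first to its last annotated base. Of the 26 replication-dependent genes with a span of at least 1000 bp, 23 were tested and all had some reads, and of the 44 shorter genes 18 were tested. The median level over all genes of each kind, tested or not, was 4.13 FPKM for the long and 0.552 FPKM for the short genes. The most abundant members were nonetheless short, since H2BC12 (495 bp), H1-2 (731 bp), H2AC18 (549 bp) and H2AC19 (564 bp) all have a span close to that of the coding sequence. Of the 70 genes, 16 overlap another gene of the table, and whether the authors' counting used strand is not given, so overlapping reads may be shared.

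**Figure D1:**
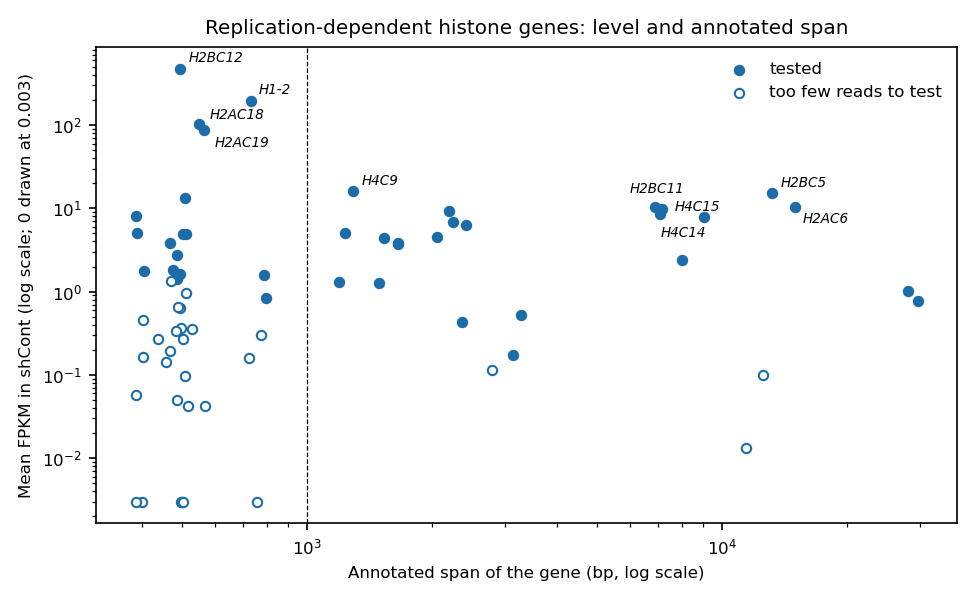
Mean FPKM in shCont (log scale) against annotated span in bp (log scale) of the 70 replication-dependent histone genes; filled points are the 41 genes with enough reads for a test, open points the 29 others, the dashed line marks 1000 bp and genes at 0 are drawn at the bottom edge. The 4 highest points are short genes, and 23 of the 26 genes to the right of the line are filled.

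Against shCont, 4 of 41 replication-dependent genes were higher and 0 lower with shRPL6-1 (edgeR quasi-likelihood test, adjusted p under 0.05). Of all 16146 genes tested, 4.44% were higher and 4.07% lower in that comparison. At an unadjusted p under 0.05, 11 were higher and 1 lower, and DESeq2 called 8 higher and 1 lower. DESeq2 called 1287 of all 16146 genes higher and 1276 lower. The share of all genes at an unadjusted p was not counted. With shRPL6-2, 8 of 41 were higher and 1 lower, against 13.3% and 14.6% of all genes. Both comparisons use the same shCont libraries. Without shCont replicate 3, 9 were higher and 1 lower with shRPL6-1, and 9 were higher and 2 lower with shRPL6-2. Of all genes tested in that fit, 15.6% were higher and 13.3% lower with shRPL6-1, and 22% and 21.6% with shRPL6-2, so the share of higher genes with shRPL6-2 was that of all genes. With correction for GC content and length, 4 were higher and 0 lower with shRPL6-1 (8.66% and 7.64% of all genes), 3 of them among the calls above, and 3 were higher and 1 lower with shRPL6-2 (12.6% and 11.7% of all genes), of which 1, H2BC5, was among the calls above. The count of calls with shRPL6-1 was 0 once shRPL6-1 replicate 1 was left out and 1 on leaving out its replicate 2 or either of shCont replicates 1 and 2. Calls over all genes fell as well, from 8.51% with all libraries to 0.623% and 1.28% without shRPL6-1 replicates 1 and 2. Without shCont replicates 1 and 2 they were 0.857% and 0.603%. With shRPL6-2 the count was 2 on omission of shCont replicate 2 and 3 on omission of shCont replicate 1 or of its own replicate 2. Over all genes, calls with shRPL6-2 fell from 27.9% to 8.39%, 9.52% and 10.9% in these fits, in the same order. In these bulk libraries, a change in the share of cells in S phase and a change in RNA per cell cannot be told apart. Of the 41 genes, 3 (H2BC5, H2BC11 and H1-2) were higher with both hairpins, where 3.68% of all genes were, and none was lower with both, where 3.41% of all genes were. Without regard to the test, 11 of the 41 genes had all 6 hairpin libraries above all shCont libraries, as did 11.2% of all genes, and 0 had them all below, as did 10.6%.

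H2BC5 (chr6:26158146-26171349), which encodes an H2B of the large chromosome 6 cluster, stood at 19.6, 18.5 and 16.7 CPM in shCont replicates 1, 2 and 3 (CPM, counts scaled to library size by TMM). It stood at 36.2, 36.5 and 34.4 CPM with shRPL6-1 and at 33.4, 29.6 and 37.6 CPM with shRPL6-2. All hairpin libraries lay above all shCont libraries. The gene rose on the log2 scale by 0.96 with shRPL6-1 (SE 0.16, adjusted p = 0.0106) and 0.87 with shRPL6-2 (SE 0.16, adjusted p = 0.00593). With shRPL6-2 the call held under every alternative run, including correction for GC content and length (log2 fold change 0.50, adjusted p = 0.0457, with adjusted p of 8.48e-06 to 0.0457 over the alternatives). With shRPL6-1 it was lost without shCont replicate 2 or shRPL6-1 replicate 1, and with the replicate number as a block (adjusted p = 0.0629), with an adjusted p of 2.6e-06 to 0.0638 over the alternatives. The gene's long span overlaps the pseudogene LARP1P1 and AL353759.1.

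H2BC11 (chr6:27125897-27132795), another H2B gene, stood at 18.3, 17.1 and 18.3 CPM in shCont. It stood at 34.2, 42.2 and 33.0 CPM with shRPL6-1 and at 27.2, 36.4 and 29.5 CPM with shRPL6-2. The groups did not overlap, and the 3 shCont values lay close together. The gene rose by log2 1.03 (SE 0.17, adjusted p = 0.0115) and 0.79 (SE 0.17, adjusted p = 0.0108). The first call did not survive omission of replicate 1 or 2 of either group compared, nor the second that of shCont replicate 2. Correction for GC content and length kept the first (0.75, adjusted p = 0.00965) and ended the second (0.35, adjusted p = 0.109), and over all alternatives the adjusted p ran from 1.57e-05 to 0.073 and from 0.000492 to 0.109.

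H1-2 (chr6:26055740-26056470), a main linker histone of dividing cells, stood at 129, 136 and 145 CPM in shCont. It stood at 201, 260 and 181 CPM with shRPL6-1 and at 182, 224 and 228 CPM with shRPL6-2. Again no hairpin library overlapped the controls. H1-2 rose by 0.65 on the log2 scale with shRPL6-1 (SE 0.17, adjusted p = 0.0435) and by 0.63 with shRPL6-2 (SE 0.17, adjusted p = 0.0225). Both calls were lost with correction for GC content and length, where the values were 0.28 and −0.02 (adjusted p = 0.396 and 0.96, the highest over the alternatives). The lowest adjusted p over the alternatives was 0.00873 and 0.00428. The first call was also lost without any single library other than shCont replicate 3 and shRPL6-2 replicate 3, and the second on omission of replicate 2 of either group or of shCont replicate 1. H1-4, a second linker histone gene, was far less abundant and did not pass the test, with log2 fold changes of 1.26 (adjusted p = 0.0761) and 1.17 (adjusted p = 0.0557).

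**Figure D2:**
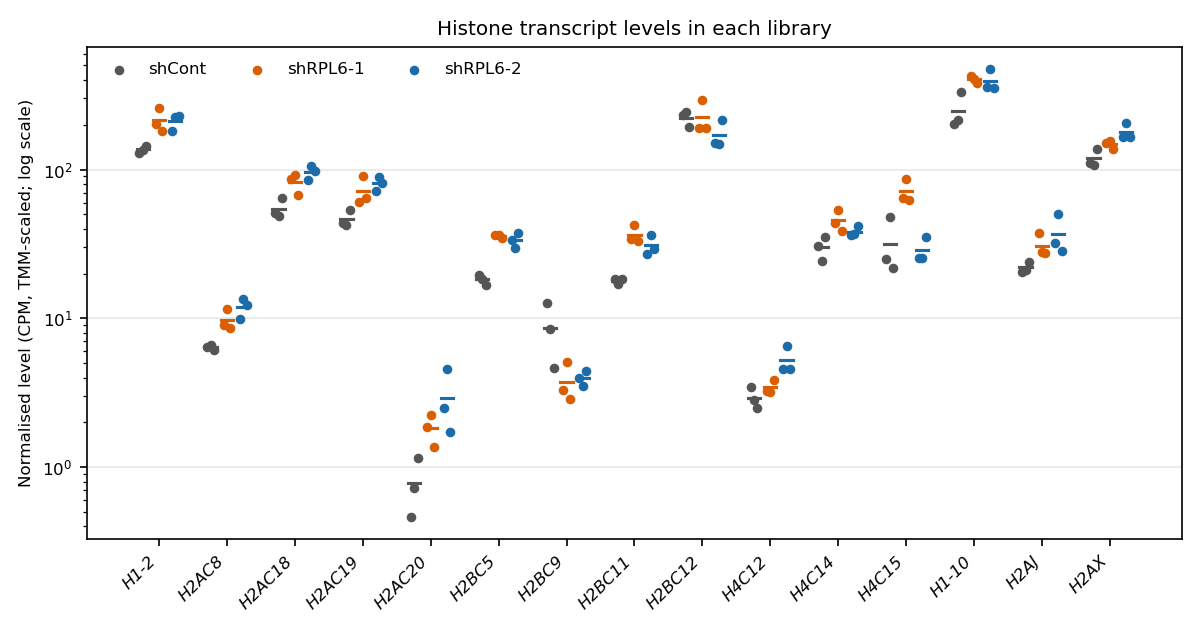
Level of 15 histone genes in each library (TMM-scaled CPM, log scale), with 1 point per library, a bar at the mean of the 3 libraries of a group and colours for shCont, shRPL6-1 and shRPL6-2. For H2BC5, H2BC11 and H1-2 the 6 hairpin points lie above the 3 shCont points, and for H4C15 only the shRPL6-1 points do.

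The other replication-dependent genes called with shRPL6-2 were mostly H2A genes. H2AC18 (chr1:149842188-149842736) stood at 51.1, 48.4 and 64.2 CPM in shCont, 86.9, 92.4 and 67.0 CPM with shRPL6-1 and 84.9, 105 and 97.3 CPM with shRPL6-2. All hairpin libraries were above the controls, and the log2 fold change was 0.59 with shRPL6-1 (SE 0.18, adjusted p = 0.0649) and 0.81 with shRPL6-2 (SE 0.18, adjusted p = 0.0112). Its copy H2AC19 (chr1:149851061-149851624) had 0.62 (SE 0.19, adjusted p = 0.0665) and 0.80 (SE 0.19, adjusted p = 0.0145). Summed over the pair, which removes the doubt about the split, the level was 101 ± 14.3 CPM in shCont, 154 ± 26.5 CPM with shRPL6-1 and 177 ± 19.4 CPM with shRPL6-2 (mean ± SD, n = 3). With correction for GC content and length the shRPL6-2 values fell to 0.04 and 0.02 (adjusted p = 0.911 and 0.952), and over the alternatives the adjusted p ran from 0.000408 to 0.911 and from 0.00109 to 0.952. Both calls were lost without shCont replicate 2, and that of H2AC19 also without shCont replicate 1 or shRPL6-2 replicate 2.

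H2AC8 (chr6:26216975-26217483) stood at 6.39, 6.64 and 6.14 CPM in shCont, 9.01, 11.5 and 8.63 CPM with shRPL6-1 and 9.95, 13.6 and 12.4 CPM with shRPL6-2. The log2 fold change was 0.60 with shRPL6-1 (SE 0.20, adjusted p = 0.0848) and 0.90 with shRPL6-2 (SE 0.20, adjusted p = 0.0119), and the groups did not overlap. H2AC20 (chr1:149886918-149887411) was rare, with 7, 12 and 17 counts in shCont, 30, 33 and 20 with shRPL6-1 and 36, 56 and 23 with shRPL6-2. It had the largest fold change among the tested members with shRPL6-2, log2 1.90 (SE 0.45, adjusted p = 0.0138), and 1.23 (SE 0.45, adjusted p = 0.107) with shRPL6-1. The filter for low counts took in all libraries, so the gene may have passed it through the hairpin libraries, where its counts were higher. Its rank is therefore a description only. H4C12 (chr6:27831174-27831560) stood at 3.46, 2.84 and 2.49 CPM in shCont and at 4.59, 6.53 and 4.57 CPM with shRPL6-2 (log2 fold change 0.83, SE 0.25, adjusted p = 0.031), whereas its shRPL6-1 libraries overlapped the controls (0.23, adjusted p = 0.562). With correction for GC content and length the shRPL6-2 values were 0.19 for H2AC8, 0.98 for H2AC20 and −0.22 for H4C12 (adjusted p = 0.585, 0.0533 and 0.636), and over the alternatives the adjusted p ran from 0.000954 to 0.585, 0.0015 to 0.0609 and 0.0217 to 0.636. All 3 calls were lost without shCont replicate 1 or shRPL6-2 replicate 2, those of H2AC20 and H4C12 also without shCont replicate 2, and that of H4C12 without shRPL6-2 replicate 1.

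Among the tested histone genes, H4C15 had the largest fitted difference between the hairpins, which did not pass the test. H4C15 (chr1:149854045-149861210) and H4C14 (chr1:149832659-149839767) are copies at 1q21 that lie in opposite orientation, encode histone H4 and have identical promoters over the 300 bases examined. H4C15 stood at 25, 48.2 and 21.8 CPM in shCont, 64.8, 86.1 and 62.6 CPM with shRPL6-1 and 25.4, 25.4 and 35.2 CPM with shRPL6-2. The shRPL6-1 libraries were above all others, while those of shRPL6-2 overlapped the controls, of which replicate 2 was the highest.

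The log2 fold change of H4C15 was 1.17 (SE 0.29, adjusted p = 0.0372, 0.00303 to 0.158 over the alternatives) with shRPL6-1 and −0.15 (SE 0.29, adjusted p = 0.729) with shRPL6-2. Set directly against each other, shRPL6-2 differed from shRPL6-1 by −1.31 (SE 0.29, adjusted p = 0.112), which did not pass the test, and over the alternatives the adjusted p ran from 0.00271 with DESeq2 to 0.422. It passed when shCont replicate 2 (adjusted p = 0.0466) or shCont replicate 3 (adjusted p = 0.043) was left out. The call with shRPL6-1 was lost without shCont replicate 1, any shRPL6-1 library or shRPL6-2 replicate 1. H4C14 stood at 30.5, 24.4 and 35.2 CPM in shCont, 44.0, 53.6 and 38.8 CPM with shRPL6-1 and 36.5, 37.1 and 41.5 CPM with shRPL6-2. Counts of H4C15 per count of H4C14 were 0.821, 1.98 and 0.619 in shCont, 1.47, 1.60 and 1.61 with shRPL6-1 and 0.697, 0.685 and 0.848 with shRPL6-2. Summed over both copies, the level was 61.7 ± 9.46 CPM in shCont, 117 ± 20.3 CPM with shRPL6-1 and 67.0 ± 8.35 CPM with shRPL6-2. H4C15 overlaps H3C15 and H4C14 overlaps H3C14, and the H3 genes stood at no more than 8.93 CPM in any library.

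No member of either class was called between the hairpins. At an unadjusted p under 0.05, shRPL6-2 exceeded shRPL6-1 in 2 replication-dependent genes and fell short of it in 1, with 0 replacement genes in either direction, and DESeq2 called 1 lower gene, H4C15. Of all genes, edgeR called 0.0681% higher and 0.316% lower, and DESeq2 called 2% in either direction.

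Only H2BC9 was called lower among the replication-dependent genes, with shRPL6-2. The gene (chr6:26251651-26253710) stood at 12.7, 8.51 and 4.65 CPM in shCont, 3.32, 5.11 and 2.85 CPM with shRPL6-1 and 3.97, 3.51 and 4.42 CPM with shRPL6-2. The controls were widely spread, and replicate 3, the lowest, overlapped the shRPL6-1 libraries. The log2 fold change was −1.19 with shRPL6-1 (SE 0.35, adjusted p = 0.0602) and −1.11 with shRPL6-2 (SE 0.35, adjusted p = 0.0388). It had the lowest GC content of the members (41.6%), and with correction for GC content and length the second value was −0.49 (adjusted p = 0.213), with an adjusted p of 0.00392 to 0.213 over the alternatives. The call was lost without any single library other than shCont replicate 3 and shRPL6-1 replicate 2.

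H2BC12, the most abundant member, was not called. It stood at 232, 242 and 192 CPM in shCont, 190, 293 and 189 CPM with shRPL6-1 and 151, 149 and 214 CPM with shRPL6-2, with overlapping groups. Its log2 fold change was 0.01 with shRPL6-1 (SE 0.22, adjusted p = 0.972), with the sign turned by several alternatives, and −0.37 with shRPL6-2 (SE 0.22, adjusted p = 0.216, 0.0377 with correction for GC content and length). H4C9 had −0.04 (SE 0.25, adjusted p = 0.931) and −0.28 (SE 0.25, adjusted p = 0.42). Neither p shows that the level stayed the same.

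**Figure D3:**
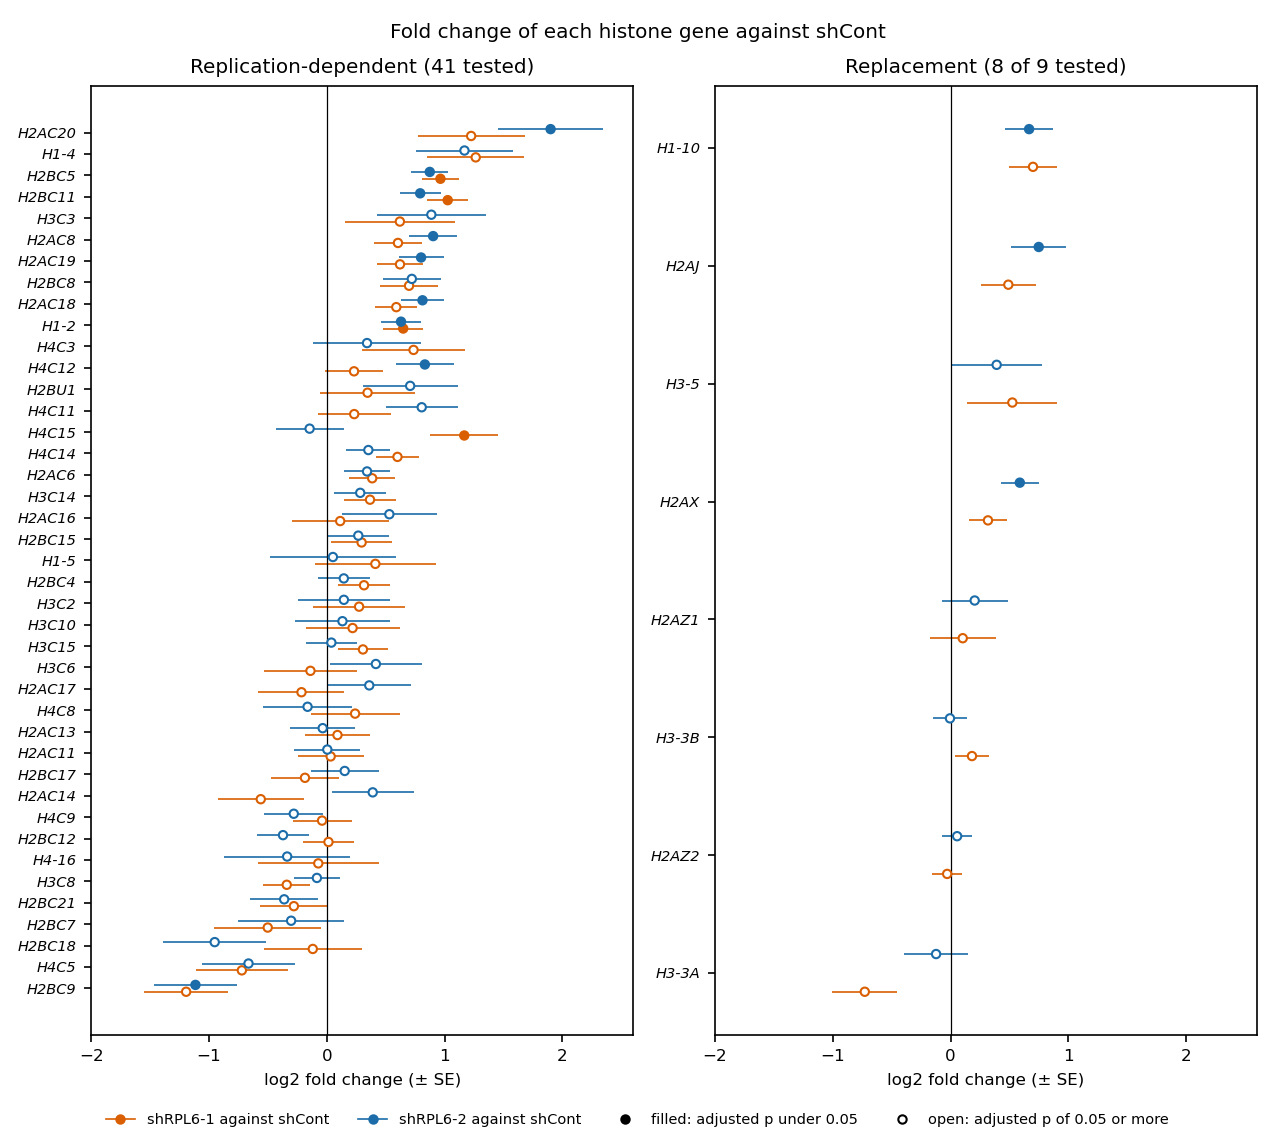
Log2 fold change against shCont (points, with bars of 1 SE) of the 41 replication-dependent and 8 of the 9 replacement histone genes tested, for shRPL6-1 and shRPL6-2; filled points have an adjusted p under 0.05. The filled points lie to the right of 0 except that of H2BC9, and with correction for GC content and length the shRPL6-2 values of H1-2 and H4C12 moved to −0.02 and −0.22.

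Many H2A and H2B genes stand head to head and share the stretch between their starts. In the GENCODE models, 11 pairs of replication-dependent genes pointed away from each other with at most 400 bases between their starts, and both genes were tested in 5. In the H2BC8 and H2AC8 pair both genes had values above 0, H2BC8 with 0.70 (SE 0.25, adjusted p = 0.0954) and 0.72 (SE 0.25, adjusted p = 0.0507). The H2BC11 and H2AC11 pair, whose starts are 292 bases apart, moved unequally, since H2AC11 stood at 14.9, 17.6 and 10.2 CPM in shCont, 12.6, 18 and 13.2 CPM with shRPL6-1 and 12.7, 10.6 and 19.6 CPM with shRPL6-2. Its log2 fold change was 0.03 with shRPL6-1 (SE 0.28, adjusted p = 0.949) and 0.00 with shRPL6-2 (SE 0.28, adjusted p = 0.992). H2BC21, which faces H2AC20, likewise had −0.28 (SE 0.29, adjusted p = 0.542) and −0.36 (SE 0.29, adjusted p = 0.361). The difference between the genes of a pair was not tested. In the other pairs tested (H2BC4 with H2AC6, and H2AC17 with H2BC17) no gene was called. H2AC6 had log2 fold changes of 0.39 (adjusted p = 0.213, 0.00886 to 0.567 over the alternatives) and 0.34 (adjusted p = 0.206, 0.0023 to 0.382), with all hairpin libraries above the controls, and it passed the test with both hairpins after correction for GC content and length (0.68, adjusted p = 0.00886, and 0.86, adjusted p = 0.0023). H2AC6, H2AC11, H2BC21, H2BC8, H4C14 and H1-4 were taken up after their values had been seen.

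The stretch shared by H2BC11 and H2AC11 and the promoter of H2BC5 are shown because H2BC5 and H2BC11 had the smallest adjusted p of the members with shRPL6-1. Both are the 250 bases before the start (RefSeq, GRCh38.p14), read towards the H2B gene. Capitals mark the octamer ATTTGCAT, which is bound by OCT1 in H2B promoters, the CCAAT box and the TATA box TATAAA, each on either strand.
H2BC11 (chr6:27132796-27133045, − strand): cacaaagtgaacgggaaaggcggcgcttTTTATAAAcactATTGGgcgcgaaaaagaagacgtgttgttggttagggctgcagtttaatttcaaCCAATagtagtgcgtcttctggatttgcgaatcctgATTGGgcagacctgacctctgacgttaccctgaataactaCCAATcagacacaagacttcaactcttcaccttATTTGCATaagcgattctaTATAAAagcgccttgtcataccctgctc
H2BC5 (chr6:26157871-26158120, + strand): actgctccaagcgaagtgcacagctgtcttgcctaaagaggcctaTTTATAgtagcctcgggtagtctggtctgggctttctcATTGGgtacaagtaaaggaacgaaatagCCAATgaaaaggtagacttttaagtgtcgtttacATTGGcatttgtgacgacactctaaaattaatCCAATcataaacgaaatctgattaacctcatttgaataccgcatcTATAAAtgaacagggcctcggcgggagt
In H2BC11 the octamer starts 47 bases and a TATA box 28 bases before the start, and at the far end, near the start of H2AC11, another TATA box lies on both strands in overlapping copies. H2BC5 has a TATA box at the same 28 bases and no exact octamer. Among the 71 members with a promoter in this table, the octamer was present in 14 of 17 replication-dependent H2B genes, 11 of 15 H2A, 1 of 12 H3, 0 of 12 H4 and 0 of 6 H1 genes, and in 1.66% of all 27305 promoters. Of the replacement promoters, 1 of 9 held the octamer. The CCAAT box stood in 85.5% of the replication-dependent promoters, 8 of 9 replacement promoters and 33.0% of all. By family, it stood in 3 of 12 replication-dependent H4 promoters and in all those of the other families. The TATA box stood in 67.7% of the replication-dependent promoters, 4 of 9 replacement promoters and 11.1% of all. A match is a sequence description only.

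Among the replacement histones, 0 of 9 genes were called with shRPL6-1, where 2 higher and 1 lower had an unadjusted p under 0.05 and DESeq2 called 2 higher. With shRPL6-2, 3 of 9 were higher (H1-10, H2AJ and H2AX) and 0 lower, against 13.3% and 14.6% of all genes, where none was lower at an unadjusted p under 0.05 or with DESeq2. Without shCont replicate 3 the calls were 3 higher and 1 lower with shRPL6-1 and 4 higher with shRPL6-2. Of all genes in that fit, 15.6% were higher and 13.3% lower with shRPL6-1, and 22% and 21.6% with shRPL6-2.

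H1-10 (chr3:129314771-129316286), the linker histone H1.X, stood at 202, 215 and 330 CPM in shCont, 427, 403 and 383 CPM with shRPL6-1 and 360, 471 and 355 CPM with shRPL6-2. Every hairpin library was above the controls, of which replicate 3 was the highest. Its log2 fold change was 0.70 with shRPL6-1 (SE 0.20, adjusted p = 0.0576) and 0.67 with shRPL6-2 (SE 0.20, adjusted p = 0.0342). It had the highest GC content of the members (68.6%), and correction for GC content moved the values to 0.45 (adjusted p = 0.0131) and 0.14 (adjusted p = 0.286), so that the call moved from 1 hairpin to the other. Over the alternatives the adjusted p ran from 0.00362 to 0.209 and from 0.00175 to 0.286. The shRPL6-2 call was lost without any single library other than shCont replicate 3, shRPL6-1 replicate 2 and shRPL6-2 replicate 3.

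H2AX (chr11:119093854-119095467), whose protein is phosphorylated around DNA breaks and whose messenger can end at its stem-loop or at a poly-A site, stood at 111, 108 and 138 CPM in shCont, 150, 156 and 138 CPM with shRPL6-1 and 166, 205 and 164 CPM with shRPL6-2. The log2 fold change was 0.32 with shRPL6-1 (SE 0.16, adjusted p = 0.209) and 0.59 with shRPL6-2 (SE 0.16, adjusted p = 0.0224), and the second fell to 0.12 (adjusted p = 0.495) with correction for GC content and length (0.00391 to 0.676 over the alternatives) and was not called on omission of replicate 2 of either group or of shCont replicate 1. H2AJ (chr12:14774383-14778002), an H2A variant, stood at 20.6, 21.2 and 24.1 CPM in shCont, 37.5, 27.7 and 27.4 CPM with shRPL6-1 and 32, 50.6 and 28.3 CPM with shRPL6-2. Its log2 fold change was 0.49 with shRPL6-1 (SE 0.23, adjusted p = 0.189) and 0.75 with shRPL6-2 (SE 0.23, adjusted p = 0.0366). The call with shRPL6-2 held with correction for GC content and length (0.90, adjusted p = 0.0308) and was lost on omission of replicate 1 or 2 of shCont or shRPL6-2, or of shRPL6-1 replicate 2 or 3 (0.0147 to 0.161 over the alternatives).

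The variants of H2A.Z and H3.3 gave no call with all libraries in the fit. H2AZ1 had log2 fold changes of 0.10 (SE 0.28, adjusted p = 0.835) and 0.20 (SE 0.28, adjusted p = 0.608), and H2AZ2 −0.03 (SE 0.13, adjusted p = 0.901) and 0.06 (SE 0.13, adjusted p = 0.767). H2AZ2 was also the steadiest in level, at 186 to 189 CPM in shCont, 178 to 193 CPM with shRPL6-1 and 185 to 207 CPM with shRPL6-2. For H3.3, H3-3B had 0.18 (SE 0.14, adjusted p = 0.411) and −0.01 (SE 0.14, adjusted p = 0.982), and H3-3A −0.73 (SE 0.28, adjusted p = 0.113) and −0.12 (SE 0.27, adjusted p = 0.758). Without shCont replicate 3, H3-3A was called lower with shRPL6-1 (−0.95, adjusted p = 0.0168, with 0.0168 to 0.352 over the alternatives). H3-5, another replacement H3 gene with few counts, had 0.52 (SE 0.38, adjusted p = 0.382) and 0.39 (SE 0.39, adjusted p = 0.469). H3-3A, H3-3B, H1-10 and H2AZ1 each overlap another gene of the table.

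As a class, the 70 replication-dependent genes took 0.0850%, 0.0862% and 0.0703% of all counts in shCont, 0.0903%, 0.122% and 0.0878% with shRPL6-1 and 0.0788%, 0.0812% and 0.0994% with shRPL6-2. By this share the shRPL6-1 libraries were above the controls and the shRPL6-2 libraries overlapped them, with ratios of the group means of 1.24 and 1.07. As TMM-scaled CPM the class summed to 774, 788 and 717 in shCont and to 813, 904 and 1024 with shRPL6-2, all above the controls, and the ratios were 1.32 and 1.20. Leaving out H2BC12 moved the ratios of the shares to 1.37 and 1.23, and both hairpin groups then lay above the controls by share. The highest shCont library stood at 0.0597% there and the lowest shRPL6-2 library at 0.0642%. The 11 replacement genes took 0.143%, 0.147% and 0.148% of the counts in shCont, 0.165%, 0.160% and 0.179% with shRPL6-1 and 0.150%, 0.180% and 0.151% with shRPL6-2, with ratios of 1.15 and 1.10. By share, both hairpin groups lay above the controls in this class. Without H1-10 both groups overlapped the controls by share, with ratios of 1.07 and 1.03. In TMM-scaled CPM, by contrast, the class without H1-10 showed no overlap. Its highest shCont library stood at 1175 CPM, while the lowest library of shRPL6-1 was at 1209 CPM and that of shRPL6-2 at 1187 CPM. The ratios of these CPM means were 1.13 for shRPL6-1 and 1.15 for shRPL6-2.

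**Figure D4:**
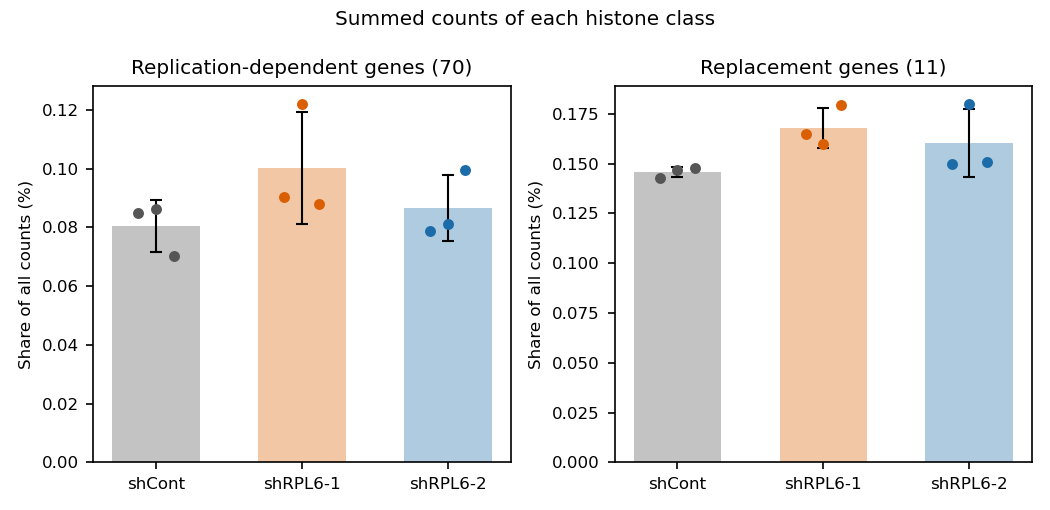
Share of all counts (%) taken by the 70 replication-dependent and the 11 replacement histone genes; bars are means of 3 libraries, error bars 1 SD and points single libraries. The replication-dependent share was 0.0703% to 0.0862% in shCont, 0.0878% to 0.122% with shRPL6-1 and 0.0788% to 0.0994% with shRPL6-2.

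Across the tested genes, the median log2 fold change of the replication-dependent class was 0.27 with shRPL6-1 and 0.28 with shRPL6-2, beside −0.01 and −0.03 over all genes, and it was 0.16 and −0.02 with correction for GC content and length. That of the replacement class was 0.32 and 0.35, and 0.09 and 0.21 with that correction. In each of the comparisons, 29 of the 41 replication-dependent genes (70.7%) and 7 of the 9 replacement genes had a value above 0, beside 49.1% and 48.6% of all genes. The fold changes went with GC content across the 39 replication-dependent genes with a GC value (Spearman correlation 0.27 with shRPL6-1 and 0.55 with shRPL6-2), as they did across 15996 genes of the table (0.34 and 0.49). These points share libraries, and genes are not independent replicates. Short genes carried the difference in GC content. The 18 tested genes with a span under 1000 bp had a median GC content of 61.4% and median log2 fold changes of 0.34 and 0.58, and the 23 longer ones had 48.0% and values of 0.24 and 0.04. With correction for GC content and length the medians were 0.07 and −0.11 for the short and 0.16 and 0.05 for the long genes. The part of GC content in the histone results was not tested beyond these values.

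**Figure D5:**
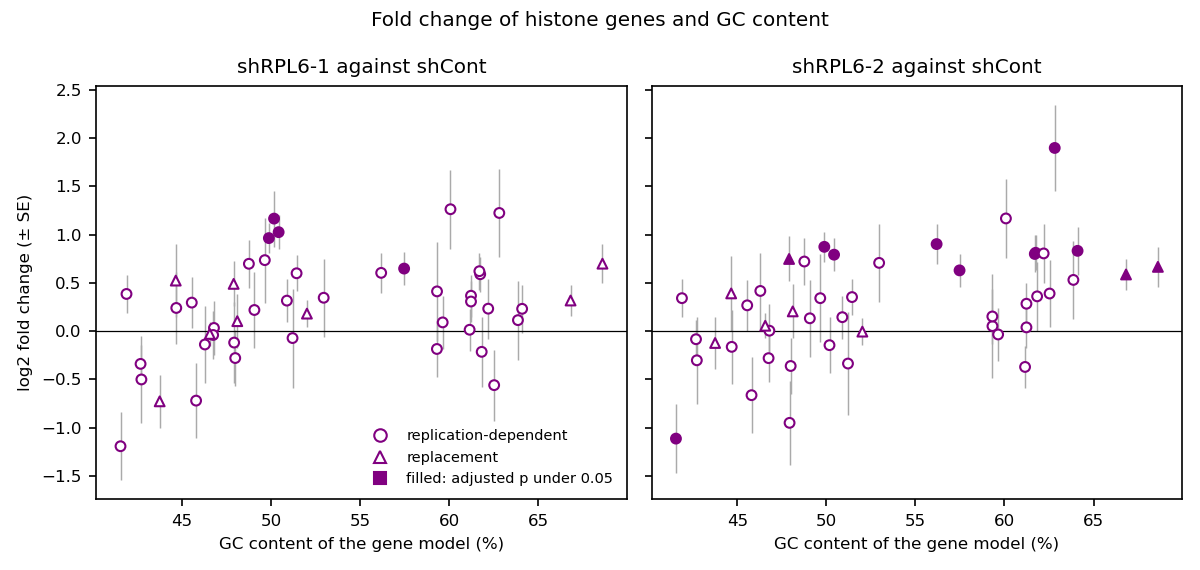
Log2 fold change against shCont (with bars of 1 SE) against the GC content of the gene model (%) for the tested replication-dependent (circles) and 8 of the 9 tested replacement (triangles) histone genes, 1 panel per hairpin; filled symbols have an adjusted p under 0.05. With shRPL6-2 the values tended to be higher at higher GC content (Spearman correlation 0.55 over the replication-dependent genes), from H2BC9 at the lowest GC content to H1-10 at the highest, and this order was also present across all genes (0.49).

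Genes that make, trim and degrade histone mRNA gave calls in both directions. Of 18 genes for the histone loci and stem-loop 3′ end processing, 2 were higher and 2 lower with shRPL6-1, and 4 were higher and 2 lower with shRPL6-2. The counts of this and the following lists stand beside 4.44% higher and 4.07% lower of all genes with shRPL6-1. The shares were 13.3% and 14.6% with shRPL6-2. Where DESeq2 counts are given for a list, DESeq2 called 15.9% of all genes with shRPL6-1 and 32.9% with shRPL6-2. NPAT, the cyclin E target that activates histone genes in S phase, went from 27.4 ± 7.40 CPM in shCont to 15.1 ± 2.44 and 11.9 ± 3.14 CPM, with log2 fold changes of −0.86 (SE 0.26, adjusted p = 0.0661) and −1.20 (SE 0.27, adjusted p = 0.0111). CASP8AP2 (FLASH), which acts at the loci and in 3′ end cutting, fell with both hairpins, by −0.89 (SE 0.21, adjusted p = 0.03) and −0.78 (SE 0.21, adjusted p = 0.0209), and neither call held with correction for GC content and length (adjusted p = 0.0673 and 0.975). SLBP was not called (−0.19 and −0.16, adjusted p = 0.571 and 0.581). The Sm protein gene SNRPG was higher with both (0.58 and 0.70, adjusted p = 0.032 and 0.0077).

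Of 11 genes for histone mRNA decay, 1 was lower with shRPL6-1, and 1 was higher and 3 lower with shRPL6-2. TUT7, a terminal uridylyltransferase, fell by log2 1.14 (SE 0.29, adjusted p = 0.0406) and 1.52 (SE 0.30, adjusted p = 0.00737). Of 13 genes for ordinary cleavage and polyadenylation, 1 was higher with each hairpin, the nuclear poly-A binding protein gene PABPN1 (0.74 and 0.94, adjusted p = 0.0307 and 0.00608), and 3 were lower with shRPL6-2. Of 16 S phase genes, 1 was higher and 4 lower with shRPL6-1, and 2 were higher and 6 lower with shRPL6-2. CCNE1 (−0.79 and −0.81), CCNE2 (−1.90 and −2.23) and PCNA (−0.77 and −0.95) fell with both hairpins and MCM2 rose with both (0.67 and 0.70), all with adjusted p of 0.00565 to 0.0288. With shRPL6-1, the calls of CCNE1, CCNE2, PCNA, MCM2, TUT7, PABPN1, SNRPG and CASP8AP2 were each lost on omission of shCont replicate 1 or 2 or of any shRPL6-1 library. With shRPL6-2, that of CCNE1 was lost on omission of shCont replicate 2 and that of CASP8AP2 on omission of replicate 1 or 2 of either group.

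Of 17 histone chaperone and variant deposition genes tested, none was called with shRPL6-1 (2 higher and 1 lower at an unadjusted p under 0.05, and 1 in each direction with DESeq2), and 2 were higher with shRPL6-2, CABIN1 (0.52, adjusted p = 0.0332) and DAXX (0.72, adjusted p = 0.0475), which both serve the deposition of H3.3. Neither was called with correction for GC content and length (adjusted p = 0.156 and 0.106). Outside the symbol rule, CENPA, the centromeric H3, had 0.55 (adjusted p = 0.0954) and 0.63 (adjusted p = 0.0351), and MACROH2A1 was not called. Finally, 10 RNAs that carry no poly-A tail were examined as a gauge of how strictly tails were selected. Of these 5 had enough counts for a test and 0 were called with either hairpin (2 lower with shRPL6-1, and 2 higher and 1 lower with shRPL6-2, at an unadjusted p under 0.05; DESeq2 called 1 lower with shRPL6-1 and 1 in each direction with shRPL6-2). With correction for GC content and length, 3 of them were lower with shRPL6-2 (RMRP, RN7SL1 and RN7SL2, adjusted p = 0.0179, 0.0211 and 0.0199). Their summed level was 194 to 383 CPM in shCont, 156 to 208 CPM with shRPL6-1 and 163 to 206 CPM with shRPL6-2. It was mostly RN7SL1 and RN7SL2, at 99.6 and 170 CPM in shCont. RMRP, RPPH1 and RN7SK stood at 3.30, 0.536 and 4.18 CPM there, and their uncorrected means were higher with both hairpins. The sum therefore follows RN7SL1 and RN7SL2, and its part in the histone values was not tested.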

How the data were processed

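Poly-A RNA from 9 libraries was sequenced, 3 per group. The authors aligned the reads with HISAT2 to GRCh38, per the labels, and deposited 1 table with whole-number counts per gene and, from StringTie, FPKM values, which divide by transcript length and library size. The annotation release and the use of strand in counting are not stated. Columns of the authors' own comparisons were not used, and 0 columns of other samples were present. Counts totalled 13638468 to 16149480 per library.

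Counts were tested with edgeR 4.0.16 (R 4.3.3, TMM scaling, filterByExpr, 1 quasi-likelihood fit over all libraries, Benjamini-Hochberg adjustment over 16146 genes, threshold 0.05). The procedure was tested on simulated data with large planted changes, the same spread setting for all genes and no GC trend. That run does not cover smaller changes or libraries that differ in their GC trend. The alternatives were DESeq2 1.42.0 size factors and Wald test, no filter, only the groups compared, a replicate block, GC and length correction (lowess span 0.3), and leaving out each library. Summed levels had no test. A count of 0 allows up to 3 counts, counting error only.

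Members and lists were chosen with earlier results of these data known. The genes named were the replacement genes tested (1 is counted in its class and not reported here by name), replication-dependent genes called with either hairpin, the 5 with the highest FPKM, and, of each other list, up to 4 called with both hairpins or else up to 2 called with either, and always SLBP, NPAT and CASP8AP2.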

Additional observations from a re-analysis of the deposited data

Results flagged for a closer look

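TYMS, the thymidylate synthase gene of the S phase list and no histone, responded differently to the hairpins: shRPL6-2 exceeded shRPL6-1 by 2.012 on the log2 scale (edgeR quasi-likelihood test of the difference, adjusted p = 0.00116), with −1.94 (SE 0.17) against shCont for shRPL6-1 and 0.07 (SE 0.16) for shRPL6-2.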

How the results depend on the processing

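Few calls held under every alternative, and the causes were not tested. With shRPL6-1 the 4 replication-dependent calls became 2 with no filter, 9 with the DESeq2 Wald test and 2 with only the groups compared, and 0 to 10 on leaving out 1 library. Of all genes tested, 8.51% were called with shRPL6-1 in the fit used above, 1.92% with no filter and 15.9% with the Wald test. With only the groups compared 5.31% were called, and 0.603% to 29% on leaving out 1 library. With shRPL6-2 the 9 replication-dependent calls became 4 with GC and length correction, of which 1 (H2BC5) was among the 9 and 3 were gained (H2AC6 and H2BC8 higher, H2BC12 lower), and 2 to 11 on leaving out 1 library. The share of all genes called was 27.9% in the fit used above, 24.3% with that correction and 8.39% to 43.6% on leaving out 1 library. Between the hairpins 0 replication-dependent calls became 1 with the Wald test and 1 with only the groups compared, and 0 to 1 on leaving out 1 library. There the share of all genes was 0.384%, 2% with the Wald test, 0.496% with only the groups compared and 0.0484% to 1.18% on leaving out 1 library. Replacement calls with shRPL6-1 (0) became 2 with the Wald test, 1 with GC correction and 2 with GC and length correction, and 0 to 4 on leaving out 1 library. Those with shRPL6-2 (3) became 1 with no filter, 0 with only the groups compared, 1 with GC correction and 0 to 4 on leaving out 1 library. Over all genes, GC correction called 16.5% with shRPL6-1 and 26.9% with shRPL6-2, and GC and length correction 16.3% with shRPL6-1. For shRPL6-2 the share was 9.43% with no filter and 18% with only the groups compared. The labels do not say whether replicate numbers pair the libraries. Deviations of same-numbered libraries correlated from −0.47 to 0.25, and those of differently numbered ones from −0.34 to 0.43. These values show no pairing but cannot exclude it. The replicate block left 0 replication-dependent calls with shRPL6-1, 6 with shRPL6-2 and 0 replacement calls with shRPL6-2, and gave H2BC12 −0.0025 with shRPL6-1. Under this block 0.198% of all genes were called with shRPL6-1 and 13% with shRPL6-2.

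Values that changed sign were mostly near 0. With shRPL6-1, GC correction gave H2AZ2 0.0221, H2BC12 −0.2231, H4C12 −0.0423 and H4C9 0.0055, GC and length correction gave H2BC12 −0.5105, H4C12 −0.3481 and H4C9 0.0045, and only the groups compared gave H2BC12 −0.0095. With shRPL6-2, GC correction gave H3-3A 0.2317, GC and length correction gave H1-2 −0.0182, H3-3A 0.2098 and H4C12 −0.2195, only the groups compared gave H2AC11 −0.0149, and H3-3B had 0.0049 with DESeq2 size factors, 0.0146 with no filter and 0.0048 with the Wald test. On leaving out 1 library with shRPL6-1, H2AC11 ran from −0.1619 to 0.1849, H2AZ1 from −0.1585 to 0.2516, H2BC12 from −0.2441 to 0.1286 and H4C9 from −0.3062 to 0.0795. With shRPL6-2, H2AC11 ran from −0.2874 to 0.1737, H2AZ1 from −0.16 to 0.4123, H2AZ2 from −0.0043 to 0.0962, H3-3A from −0.3859 to 0.1258, H3-3B from −0.1049 to 0.0469, H4C15 from −0.3501 to 0.2849 and SLBP from −0.3057 to 0.0238.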
